A study of Homo sapiens with 10 samples.

Results

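The genes described here are 10 feedback and output genes of the ERK pathway, namely the dual-specificity phosphatases DUSP1, DUSP4, DUSP5 and DUSP6, the Sprouty and Spred genes SPRY2, SPRY4 and SPRED1, the ETS factors ETV4 and ETV5, and PHLDA1. They were taken by symbol, with no threshold on their values but with earlier results of these data known. All 10 were found among the 23426 genes with a value in every sample. All 10 also had a mean above 0.1 FPKM (the fragments of a gene per length of its transcript, relative to the mapped fragments of the sample) in at least 1 group and were tested with 16071 genes in all. ERK is the last kinase of the RAS, RAF and MEK cascade, which carries growth factor signals into the nucleus. Active ERK switches on genes whose products restrain the cascade: the DUSP proteins take phosphate off ERK and related MAP kinases, and Sprouty and Spred proteins act on the steps above RAF. Because these transcripts depend on ERK activity, their level is often used as a readout of the pathway in tumour cells.

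Bulk RNA was sequenced from 2 established human breast cancer cell lines after 6 h of treatment. PKC412 (midostaurin), a staurosporine derivative that blocks many protein kinases, was given at 1 µM according to the labels, although other passages of the study give a lower dose. MDA-MB-468 (MDAMB468 in the labels) is a basal-like line and ZR75-1 a luminal line, and each was represented by 2 samples in DMSO, the vehicle, and 3 samples in PKC412. The labels name no genetic change or other agent in any group, each subtype rested on 1 line, and the methods speak of treatment in triplicate without saying whether the samples of a group were separate cultures, so that p-values measured only the spread between these samples, which may be technical. In bulk RNA, fewer cells of a kind and less RNA per cell cannot be told apart. Each labelled line carried its markers: the summed level of 5 basal genes (KRT5, KRT14, KRT17, KRT6A and EGFR) was 2368 to 2635 FPKM in MDA-MB-468 and 0.185 to 1.69 FPKM in ZR75-1, and all 6 luminal genes tested were higher in ZR75-1 in DMSO. The luminal genes were not absent from MDA-MB-468: their sum in DMSO was 2993 to 3532 FPKM there and 7636 to 10043 FPKM in ZR75-1. KRT8 (1698 and 1396 FPKM) and KRT18 (1769 and 1503 FPKM) made up most of the sum in MDA-MB-468. Of the markers of blood cells, fibroblasts and endothelium, PTPRC, CD3E, COL1A2 and DCN reached at most 0.0651 FPKM in any sample and CDH5 0.0989 FPKM. In MDA-MB-468, CD14 was 23.3 and 20.2 FPKM in DMSO and 11.7, 13.3 and 13.6 FPKM in PKC412, without overlap (log2 difference -0.71, limma adjusted p = 0.0737). PECAM1 rose there by 0.31 (limma adjusted p = 0.0404), and COL1A1 differed by 0.35 (0.354) there and rose by 1.49 (0.0181) in ZR75-1, to between 6.65 and 11.1 FPKM. The part of these genes in the results below was not tested.

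The samples differed in how FPKM ran along the GC content of transcripts. The slope per 10 points of GC, on the log2 scale relative to the mean of the 5 samples of a line, was 0.37 and 0.06 in the DMSO samples of MDA-MB-468 and -0.29, -0.02 and -0.12 in its PKC412 samples, so that the treatments did not overlap. In ZR75-1 the slopes were 0.31 and -0.19 in DMSO and -0.11, 0.34 and -0.36 in PKC412. Transcripts of the 10 genes ran from 38.9% GC for SPRED1 to 60.8% for ETV4. Differences adjusted for GC content and length are therefore given below where they moved a call on 1 of the 10 genes. The same holds for other pathway genes that passed as deposited after PKC412 in either line. For the other genes named (the markers, DUSP2, DUSP16 and PHLDA2) no adjusted difference is given, so whether their calls moved is not shown. The median log2 difference of all genes between PKC412 and DMSO in MDA-MB-468 was 0.11 as deposited and 0.01 after that adjustment. The unadjusted values below carry such a shift, but its size differed from gene to gene with GC content and length.

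The promoters of DUSP1 and DUSP6 are shown because DUSP1 was the member that passed the test as higher after PKC412, in ZR75-1 only. DUSP6, of the same phosphatase family, is the classical readout of ERK. In MDA-MB-468 neither passed as deposited, and the ratio of means was larger for DUSP6 (3.65) than for DUSP1 (1.66). Each is the 250 bases before the gene's start in RefSeq on GRCh38.p14, written on the strand of the gene, here the minus strand for both, at chr5:172771196-172771445 for DUSP1 and chr12:89352502-89352751 for DUSP6. Capitals mark the cAMP response element (CRE, TGACGTCA), a motif that ERK-regulated and stress-regulated transcription factors can bind.
DUSP1: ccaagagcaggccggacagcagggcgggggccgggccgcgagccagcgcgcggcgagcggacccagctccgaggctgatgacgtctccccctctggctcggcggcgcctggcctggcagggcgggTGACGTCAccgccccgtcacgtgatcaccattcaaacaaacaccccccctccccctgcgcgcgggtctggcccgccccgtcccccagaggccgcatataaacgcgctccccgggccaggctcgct
DUSP6: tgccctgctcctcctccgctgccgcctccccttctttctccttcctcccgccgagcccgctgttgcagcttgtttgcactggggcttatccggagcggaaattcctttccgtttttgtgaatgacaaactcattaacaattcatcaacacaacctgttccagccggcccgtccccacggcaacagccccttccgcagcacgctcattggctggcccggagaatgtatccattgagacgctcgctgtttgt
The CRE in DUSP1 lay at -125 to -118 before the start, and the DUSP6 window held none. Of 8 promoters in the table that belonged to 6 of the 10 genes, 1 held a CRE, against 1.65% of all 35116 promoters of this length. None of the 8 held an AP-1 motif (TGANTCA, in 6.57% of all promoters), an ETS motif (CCGGAAGT, in 3.42%) or a CArG box (in 1.16%), with both strands searched. These are matches of letters, and binding was not measured.

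After PKC412, the 10 genes did not all move one way in either line. In MDA-MB-468, 1 of the 10, DUSP5, passed the test and fell, while 8 had a positive difference that did not pass. Of all 16071 genes tested there, 10446 also had a positive difference. In ZR75-1, DUSP1 rose, DUSP5 fell and the other 8 did not pass. The test was limma, fitted on log2(FPKM + 1) with Benjamini-Hochberg adjustment over the 16071 genes at 0.05, and it called 1.26% of all genes tested in MDA-MB-468 (0.691% higher and 0.566% lower). In ZR75-1 it called 0.946% (0.747% higher and 0.199% lower). In MDA-MB-468 the 10 genes had a median log2 difference of 0.44, against 0.11 over all genes. Their median in ZR75-1 was -0.04, against 0.07 over all genes. These medians are unadjusted, and none is given for the 10 genes after adjustment for GC and length. In MDA-MB-468, 3 settings used that adjustment: alone, with 0.1 added before the log, or with a replicate block. Across them PHLDA1 ran from 0.07 to 0.10, ETV5 from -0.14 to -0.08, SPRED1 from 0.08 to 0.31 and SPRY4 from 0.27 to 0.66. DUSP1 ran from 0.44 to 0.71, DUSP4 from 0.75 to 0.94, DUSP6 from 0.67 to 1.33 and SPRY2 from 0.40 to 0.59.

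**Figure D1:**
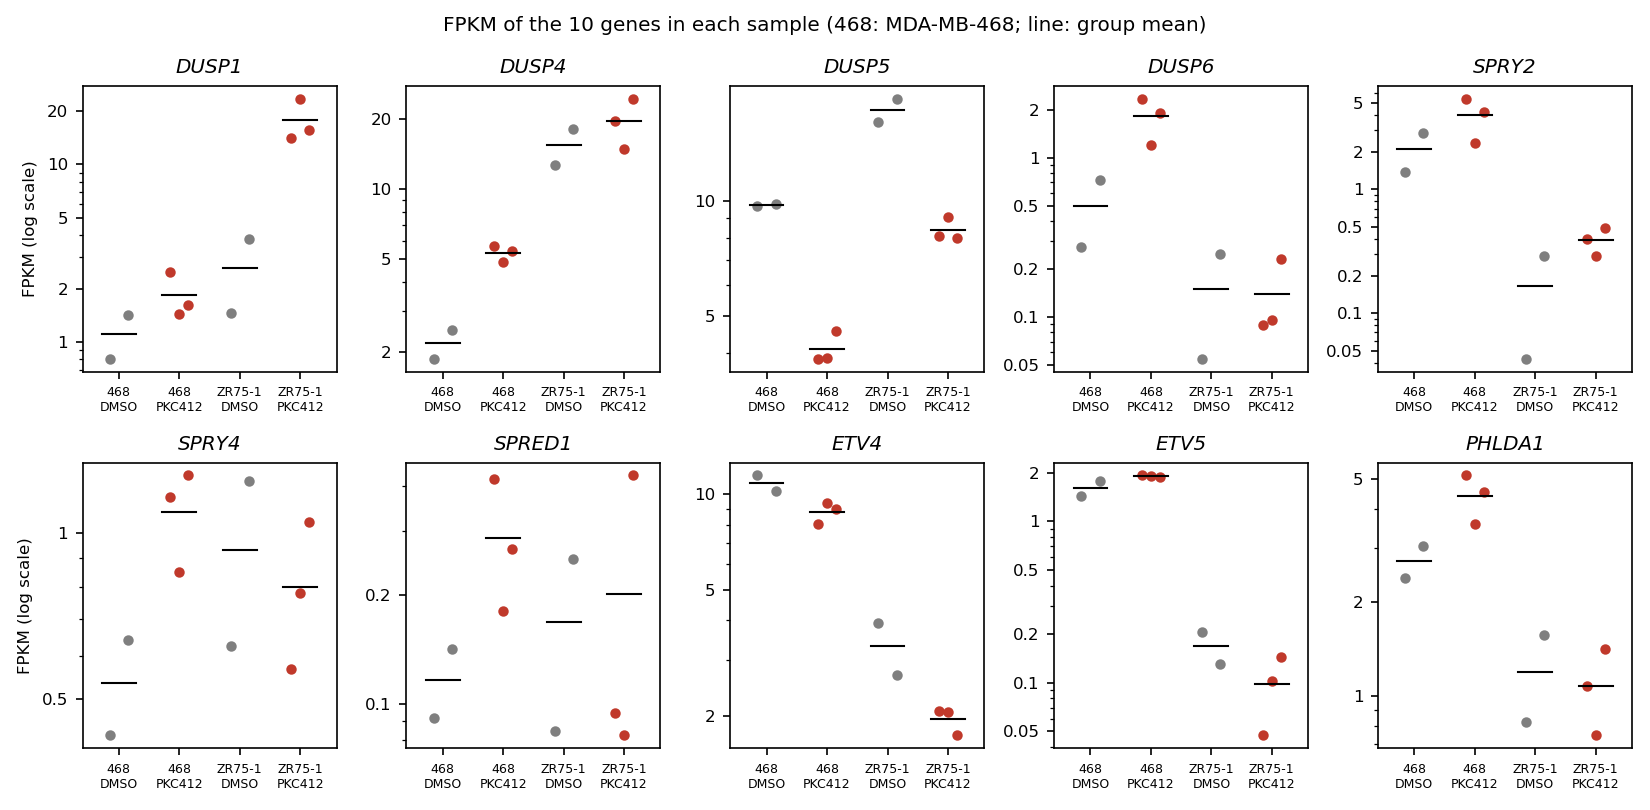
FPKM (log axis, a separate range for each panel) of the 10 genes in each of the 10 samples. Points are samples, grey for DMSO and red for PKC412, and the line is the group mean. DUSP5 was lower in all PKC412 samples of both lines, and DUSP1 reached 14.2 to 23.4 FPKM only in ZR75-1 with PKC412.

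DUSP5, a nuclear phosphatase specific to ERK that is itself induced by ERK, was the member that fell in both lines. In MDA-MB-468 its level was 9.69 and 9.81 FPKM in DMSO and 3.85, 3.88 and 4.56 FPKM in PKC412. In ZR75-1 it was 16.1 and 18.5 FPKM in DMSO and 8.07, 9.09 and 7.99 FPKM in PKC412. Every treated sample was below every DMSO sample of its line, with little spread within a group. The mean was 2.38-fold lower with PKC412 in MDA-MB-468 (log2 difference -1.08, SE 0.13, 95% interval -1.38 to -0.79, limma adjusted p = 0.00796) and 2.07-fold lower in ZR75-1 (-0.96, SE 0.13, -1.26 to -0.67, limma adjusted p = 0.017). The falls in the 2 lines differed by -0.12 (95% interval -0.53 to 0.30, limma adjusted p = 0.951). The call in MDA-MB-468 was lost without DMSO replicate 1 (-1.09, limma adjusted p = 0.0831) or 2 (-1.07, 0.0665) of that line. In ZR75-1 it was lost without DMSO replicate 1 (-1.06, limma adjusted p = 0.0607) or 2 (-0.87, 0.0655) or PKC412 replicate 1 (-0.94, 0.069) of that line, and without either DMSO sample of MDA-MB-468 (-0.96, 0.0588 and 0.058), which enter through the shared spread. After adjustment for GC and length the differences were -1.11 (limma adjusted p = 0.000642) and -1.10 (0.000688).

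DUSP1, an immediate-early nuclear phosphatase of wide substrate range that acts on JNK and p38 as well as ERK, rose in ZR75-1. Its level there was 1.45 and 3.78 FPKM in DMSO and 14.2, 23.4 and 15.6 FPKM in PKC412. The groups were far apart, although the DMSO samples differed from each other by more, in proportion, than the PKC412 samples did. The mean was 6.76-fold higher with PKC412 (log2 difference 2.42, SE 0.34, 95% interval 1.64 to 3.20, limma adjusted p = 0.0199). In MDA-MB-468 the level was 0.806 and 1.42 FPKM in DMSO and 2.50, 1.43 and 1.62 FPKM in PKC412, where the lowest treated sample barely exceeded the higher DMSO sample, and the difference of 0.43 did not pass (95% interval -0.35 to 1.21, limma adjusted p = 0.462). The difference between the lines was -1.99 (SE 0.48, 95% interval -3.09 to -0.89), which did not pass across all genes (limma adjusted p = 0.245). The rise in ZR75-1 kept its size but lost the call without PKC412 replicate 1 (2.55, limma adjusted p = 0.0553) or 3 (2.49, 0.0509) of that line, or without DMSO replicate 1 (2.42, 0.0585), DMSO replicate 2 (2.42, 0.058) or PKC412 replicate 3 (2.42, 0.0628) of MDA-MB-468. Without DMSO replicate 1 of ZR75-1, the lower of the pair, it was 1.94 (limma adjusted p = 0.122).

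DUSP4, a nuclear phosphatase induced by ERK, was higher in each PKC412 sample of MDA-MB-468, at 5.71, 4.84 and 5.45 FPKM, than in DMSO, at 1.87 and 2.49 FPKM. The ratio of means was 2.45 and the log2 difference 1.00 (SE 0.23, 95% interval 0.47 to 1.53), which did not pass (limma adjusted p = 0.102). It passed when samples were scaled by median ratios over all samples (0.89, limma adjusted p = 0.0318) or within each line (0.88, 0.048), and after adjustment for GC and length (0.75, 0.00466). In ZR75-1 DUSP4 stood at 12.7 and 18.2 FPKM in DMSO and 19.5, 14.9 and 24.4 FPKM in PKC412, with overlap between the groups (0.32, 95% interval -0.21 to 0.85, limma adjusted p = 0.661). The difference between the lines was 0.68 (limma adjusted p = 0.779) and passed only with the adjustment for GC and length, at 0.72 (limma adjusted p = 0.0443), and at 0.91 (0.0417) where 0.1 in place of 1 was also added before the log.

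DUSP6, the cytoplasmic phosphatase selective for ERK and often taken as its most direct transcript readout, had a similar pattern at lower levels. In MDA-MB-468 it was 0.275 and 0.719 FPKM in DMSO and 2.33, 1.21 and 1.91 FPKM in PKC412. The groups did not overlap, and the ratio of means was 3.65. The log2 difference of 0.91 (SE 0.19, 95% interval 0.46 to 1.35) did not pass (limma adjusted p = 0.0814), but it passed without PKC412 replicate 2, the lowest treated sample (1.07, limma adjusted p = 0.0294), and after adjustment for GC and length (0.70, 0.0245). With 0.1 in place of 1 added before the log the difference was 1.74 (limma adjusted p = 0.241). In ZR75-1 the level was 0.0546 and 0.247 FPKM in DMSO and 0.0885, 0.0956 and 0.232 FPKM in PKC412. These values were close to the limit of 0.1 FPKM for testing, the groups overlapped, and the difference was -0.01 (95% interval -0.46 to 0.43, limma adjusted p = 1). The difference between the lines was 0.92 (95% interval 0.29 to 1.55, limma adjusted p = 0.411).

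No Sprouty or Spred member passed the test after PKC412 in either line. SPRY2, a Sprouty protein that restrains receptor signalling to RAS and RAF, was 1.38 and 2.85 FPKM in DMSO and 5.36, 2.38 and 4.24 FPKM in PKC412 in MDA-MB-468, with overlap (log2 difference 0.67, 95% interval 0.00 to 1.35, limma adjusted p = 0.305). The values in ZR75-1 were 0.0429 and 0.287 FPKM in DMSO and 0.400, 0.288 and 0.486 FPKM in PKC412, where the lowest treated sample equalled the higher DMSO sample to 2 digits (0.26, limma adjusted p = 0.808). SPRY4, a related inhibitor, did not overlap between treatments in MDA-MB-468, at 0.430 and 0.642 FPKM in DMSO and 1.16, 0.850 and 1.27 FPKM in PKC412 (0.45, 95% interval 0.04 to 0.85, limma adjusted p = 0.285). Its groups overlapped in ZR75-1, at 0.624 and 1.24 FPKM in DMSO and 0.566, 0.779 and 1.05 FPKM in PKC412 (-0.10, limma adjusted p = 0.905). SPRED1, which brings the RAS-inactivating protein neurofibromin to the membrane, reached at most 0.426 FPKM in any sample. It was 0.0915 and 0.142 FPKM in DMSO and 0.416, 0.180 and 0.267 FPKM in PKC412 in MDA-MB-468 (0.20, limma adjusted p = 0.403), against 0.0845 and 0.252 FPKM in DMSO and 0.0947, 0.0822 and 0.426 FPKM in PKC412 in ZR75-1 (0.03, 0.979). Adding 1 before the log compresses such low values: SPRED1 in MDA-MB-468 had a ratio of means of 2.46 behind its difference of 0.20.

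The ETS factors ETV4 and ETV5, transcription factors whose genes respond to ERK and growth factor signals, did not pass the test either. ETV4 was lower in every PKC412 sample than in every DMSO sample of the same line. It was 11.5 and 10.3 FPKM in DMSO and 8.03, 9.38 and 8.97 FPKM in PKC412 in MDA-MB-468 (log2 difference -0.28, 95% interval -0.66 to 0.10, limma adjusted p = 0.367). ETV4 in ZR75-1 was 3.93 and 2.69 FPKM in DMSO and 2.07, 2.06 and 1.73 FPKM in PKC412 (-0.53, 95% interval -0.91 to -0.15, limma adjusted p = 0.281), a difference that passed after adjustment for GC and length (-0.57, limma adjusted p = 0.0481). ETV5 in MDA-MB-468 was 1.43 and 1.78 FPKM in DMSO and lay within 1.89 to 1.92 FPKM in PKC412. Its groups did not overlap, yet the difference of 0.16 was small, did not pass (limma adjusted p = 0.351) and was -0.09 after adjustment for GC and length (0.58). In ZR75-1 ETV5 was 0.208 and 0.131 FPKM in DMSO and 0.0472, 0.102 and 0.144 FPKM in PKC412 (-0.09, limma adjusted p = 0.771). In GENCODE 29 the locus of ETV4 overlaps DHX8 on the other strand, and that of ETV5 overlaps DGKG on the same strand, both also measured here. Whether the counting used strand is not given, and strand would not separate ETV5 from DGKG, so the values of ETV4 and ETV5 are uncertain.

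PHLDA1, a pleckstrin homology-like protein induced by growth factors, was 2.41 and 3.04 FPKM in DMSO and 5.13, 3.58 and 4.55 FPKM in PKC412 in MDA-MB-468. The groups did not overlap, but the log2 difference of 0.54 (95% interval 0.02 to 1.05) did not pass (limma adjusted p = 0.297). It was 0.08 after adjustment for GC and length (limma adjusted p = 0.58). The transcript is 44.3% GC. In ZR75-1 it was 0.824 and 1.57 FPKM in DMSO and 1.07, 0.746 and 1.42 FPKM in PKC412, with full overlap (-0.07, limma adjusted p = 0.96). DUSP1, DUSP6, SPRY4, ETV5 and PHLDA1 also overlap antisense genes in the annotation, with the same limit on strand.

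By single samples as deposited, without adjustment for GC content, 9 of the 10 genes in MDA-MB-468 had treatments that did not overlap. This compares with 55.9% of all genes tested. Of the 9, 7 were higher with PKC412, against 39.6% of all genes, and 2 lower, against 16.3%. In ZR75-1, 4 of the 10 did not overlap, against 21.7% of all genes, with 2 higher (DUSP1 and SPRY2, against 14.8%) and 2 lower (DUSP5 and ETV4, against 6.98%). SPRY2 alone overlapped in MDA-MB-468. None of the 10 passed the limma test of the difference between the lines, which called 0.268% of all genes (43 genes, with 1133 at an unadjusted p under 0.05). Of the 10, DUSP1 and DUSP6 had unadjusted p-values below that level, at 0.00316 and 0.00976.

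**Figure D2:**
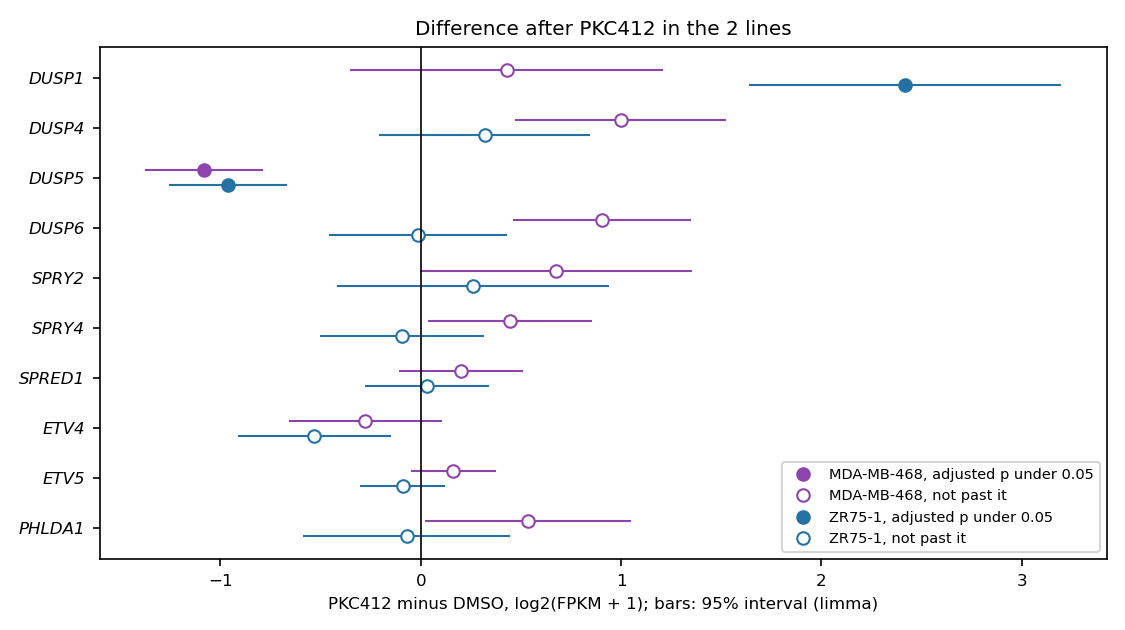
Log2 difference in log2(FPKM + 1), PKC412 minus DMSO, for each of the 10 genes in both lines, with its 95% interval from limma. Filled points passed an adjusted p of 0.05: DUSP5 in both lines (-1.08 and -0.96) and DUSP1 in ZR75-1 (2.42).

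The lines were also compared in vehicle alone. In the DMSO samples, ETV4 (mean 10.9 FPKM) and DUSP5 (9.75 FPKM) stood highest of the 10 in MDA-MB-468 and SPRED1 lowest (0.117 FPKM). In ZR75-1, DUSP5 (17.3 FPKM) and DUSP4 (15.5 FPKM) stood highest, neighbours whose samples overlapped, and DUSP6, SPRY2, SPRED1 and ETV5 lay together at 0.151 to 0.169 FPKM. By limma 6 of the 10 passed, against 42.4% of all genes tested: SPRY2, ETV4, ETV5 and PHLDA1 were higher in MDA-MB-468, as were 26.5% of all genes, and DUSP4 and DUSP5 higher in ZR75-1, as were 15.9%. The mean of DUSP4 was 7.09-fold higher in ZR75-1 (log2 difference, MDA-MB-468 minus ZR75-1, -2.36, limma adjusted p = 0.000133), and that of DUSP5 differed by -0.76 (0.00264). ETV5 was 9.48-fold higher in MDA-MB-468 (1.15, limma adjusted p = 4.13e-05), ETV4 3.28-fold (1.47, 0.000304), SPRY2 12.8-fold (1.38, 0.00886) and PHLDA1 2.28-fold (0.78, 0.0334). The call for SPRY2 was lost without DMSO replicate 2 of MDA-MB-468 (1.04, limma adjusted p = 0.0669) or DMSO replicate 1 of ZR75-1 (1.23, 0.0554). That for PHLDA1 was lost without 5 single samples: both DMSO samples (0.90 and 0.65, limma adjusted p = 0.0658 and 0.17) and PKC412 replicate 3 (0.78, 0.056) of MDA-MB-468, and DMSO replicate 1 (0.53, 0.185) and PKC412 replicate 1 (0.78, 0.0557) of ZR75-1. DUSP1 did not pass (-0.71, limma adjusted p = 0.164) but did without DMSO replicate 1 of ZR75-1 (-1.19, 0.0411), and DUSP6 (0.37, 0.205) passed after adjustment for GC and length (0.45, 0.0221). The lines differ in every way, so these are differences between 2 lines and not between subtypes.

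Another 59 genes of the pathway, in 8 lists, set these values beside the rest of the cascade. After PKC412, 3 of the 59 passed the test in MDA-MB-468, against 1.26% of all genes, and 3 in ZR75-1, against 0.946%, which made 5 genes in all. The lists were chosen with earlier results of these data known, so these counts are no test of the lists against all genes. FOSL1, which encodes the AP-1 subunit FRA-1 and is stabilised and induced by ERK, fell in both. It was 23.1 and 22.5 FPKM in DMSO and 5.09, 5.52 and 5.09 FPKM in PKC412 in MDA-MB-468, a 4.35-fold lower mean with tight groups (log2 difference -1.93, SE 0.13, limma adjusted p = 0.000609). In ZR75-1 it was 3.56 and 3.19 FPKM in DMSO and 1.48, 1.22 and 1.39 FPKM in PKC412, 2.48-fold lower (-0.89, SE 0.13, limma adjusted p = 0.0224). The call in MDA-MB-468 held without each single sample, whereas that in ZR75-1 was lost without any 1 of 8 of the 10 samples (all but PKC412 replicates 2 and 3 of ZR75-1), at -0.83 to -0.95 with limma adjusted p of 0.0555 to 0.166. The falls differed by -1.04 between the lines (limma adjusted p = 0.089).

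EPHA2, a receptor tyrosine kinase whose gene is induced by ERK, fell in MDA-MB-468. Its level was 7.73 and 8.81 FPKM in DMSO and 2.60, 2.23 and 2.55 FPKM in PKC412, 3.36-fold lower (log2 difference -1.42, limma adjusted p = 0.0049). The call held in 19 of 22 alternative settings. Among the fits without a single sample, it was lost only without DMSO replicate 2 of that line (-1.34). The values of EPHA2 in ZR75-1 were 2.05 and 2.47 FPKM in DMSO and 1.20, 1.20 and 1.54 FPKM in PKC412, below DMSO in each sample. The difference there was not past the test (-0.49, limma adjusted p = 0.272), which it passed after adjustment for GC and length (-0.60, 0.0331). LIF, a cytokine of the interleukin-6 family that signals through STAT3, fell in ZR75-1, from 5.85 and 7.13 FPKM to 2.22, 2.16 and 3.03 FPKM (-1.11, limma adjusted p = 0.0462), a call lost without any 1 of the 10 samples (-0.99 to -1.24, 0.0514 to 0.171). In MDA-MB-468 it was 2.83 and 2.53 FPKM in DMSO and 3.58, 2.38 and 3.16 FPKM in PKC412 (0.12, limma adjusted p = 0.714). So 2 of the 12 other output genes passed as lower in MDA-MB-468 (FOSL1 and EPHA2), where 0.566% of all genes did. In ZR75-1 2 passed as lower (FOSL1 and LIF), where 0.199% of all genes did, and as deposited 10 did not pass in each line. Because this list was chosen with earlier results known, its share cannot be weighed against that of all genes.

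ETS2, an ETS factor phosphorylated by ERK, rose in ZR75-1, from 0.959 and 1.60 FPKM to 6.51, 5.87 and 9.25 FPKM, 5.64-fold (log2 difference 1.84, limma adjusted p = 0.0181). The call was lost without PKC412 replicate 3 of MDA-MB-468 (1.84, limma adjusted p = 0.0624), DMSO replicate 1 (1.64, 0.146) or PKC412 replicate 1 (1.89, 0.058) of ZR75-1. In MDA-MB-468, ETS2 was 10.7 and 15.04 FPKM in DMSO and 33.1, 23.0 and 28.1 FPKM in PKC412, also without overlap, but passed only after adjustment for GC and length (1.07, limma adjusted p = 0.107; adjusted for GC and length 0.71, 0.00768). MKNK2, a kinase activated by ERK that phosphorylates the translation factor eIF4E, rose in MDA-MB-468, from 17.4 and 15.5 FPKM to 27.4, 22.9 and 27.3 FPKM (0.62, limma adjusted p = 0.0439). That call was lost without any 1 of 9 of the 10 samples (all but PKC412 replicate 2 of MDA-MB-468), at 0.54 to 0.70 with limma adjusted p of 0.0588 to 0.224. In ZR75-1, MKNK2 was 54.8 and 53.7 FPKM in DMSO and 53.7, 58.4 and 56.6 FPKM in PKC412 (0.05, limma adjusted p = 0.924). As deposited, none of EPHA2, LIF, ETS2 and MKNK2 passed the limma test of the difference between the lines. With adjustment for GC and length, LIF (1.33 to 1.64), ETS2 (-1.40 to -0.93) and MKNK2 (0.72 to 0.75) passed it in 2 of 3 settings. Their lowest limma adjusted p was 0.0109, 0.00814 and 0.016. EPHA2 passed it in none of these settings.

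In the other 5 lists no gene passed in either line. The 6 other MAP kinase phosphatases had medians of 0.17 (MDA-MB-468) and 0.24 (ZR75-1). Of these, DUSP16 was 1.67 and 2.03 FPKM in DMSO and 4.502, 3.236 and 4.091 FPKM in PKC412 in MDA-MB-468 (0.79, limma adjusted p = 0.266), and 3.224 and 4.995 FPKM in DMSO and 8.38, 5.97 and 12.8 FPKM in PKC412 in ZR75-1 (0.94, 0.286). DUSP2 was 1.57 and 2.12 FPKM in DMSO and 0.497, 0.824 and 0.779 FPKM in PKC412 in MDA-MB-468, the other way and without overlap (-0.74, limma adjusted p = 0.284). In ZR75-1, DUSP2 was 2.54 and 3.88 FPKM in DMSO and 3.56, 7.38 and 3.66 FPKM in PKC412, with overlap (0.44, limma adjusted p = 0.641). The 4 other Sprouty and Spred genes had medians of 0.22 and 0.16, the 11 genes of the RAS, RAF, MEK and ERK cascade 0.21 and 0.23, and the 11 adaptors and RAS regulators 0.44 and 0.24. PHLDA2 and PHLDA3, the relatives of PHLDA1, had differences below 0 in both lines, with medians of -0.64 and -0.81, and in ZR75-1 PHLDA2 came closest to the threshold (-1.09, limma adjusted p = 0.0553). The 5 other ETS factors tested (ETV1 was too low) had medians of 0.37 and 0.09, the 7 kinases below ERK 0.20 and -0.03, and the 12 other output genes 0.10 and -0.16.

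**Figure D3:**
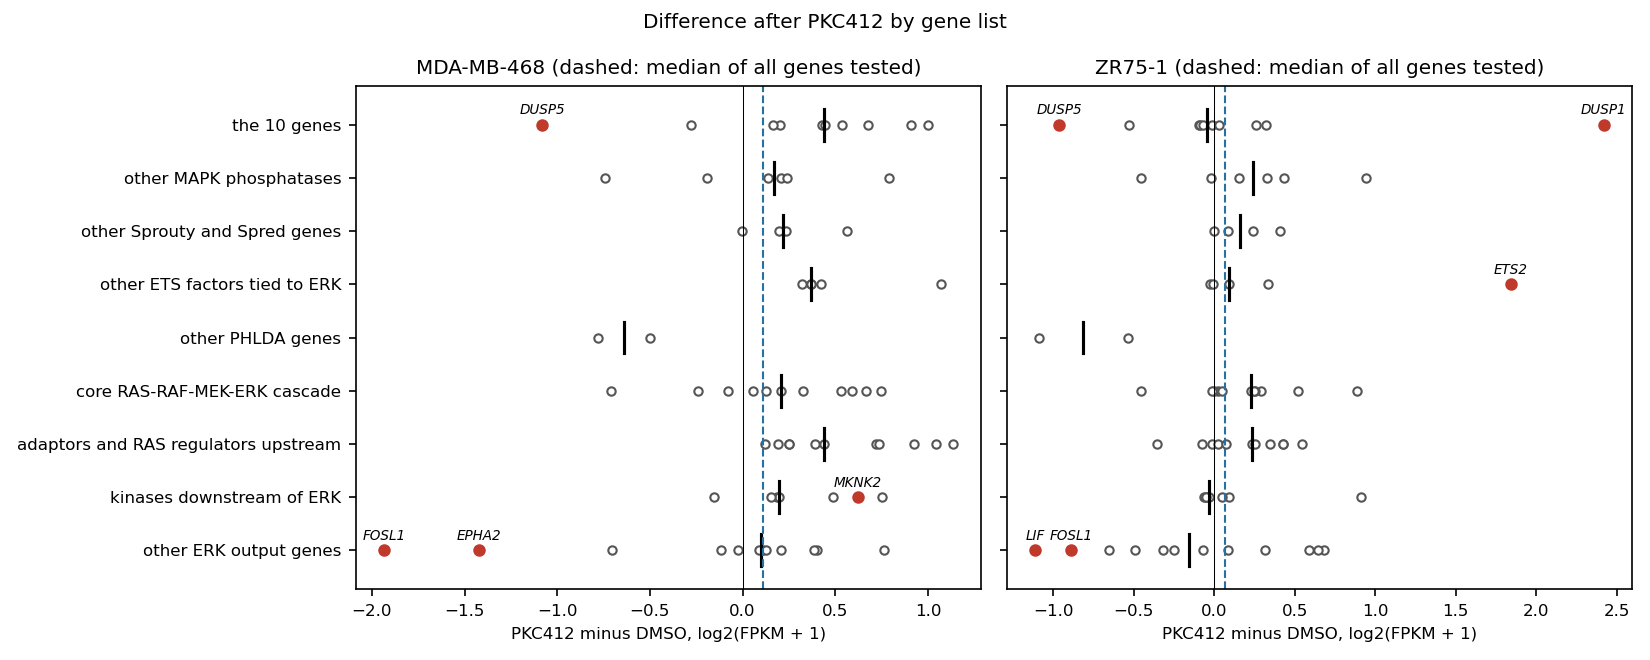
Log2 difference, PKC412 minus DMSO, of each gene in the 10 feedback and output genes and the 8 other lists, in MDA-MB-468 and ZR75-1, with short black bars for list medians and a dashed line for the median of all genes (0.11 and 0.07). Filled red points passed the limma test: DUSP5 and FOSL1 in both lines, EPHA2 and MKNK2 in MDA-MB-468, and DUSP1, ETS2 and LIF in ZR75-1.

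The direction of DUSP1 and DUSP5 did not depend on the settings tried, but their calls did. The fall of DUSP5 passed in 17 of 22 alternative settings in MDA-MB-468, where it ran from -1.27 to -1.05, and in 14 of 22 in ZR75-1, where it ran from -1.18 to -0.87. The rise of DUSP1 in ZR75-1 passed in 13 of 22 and ran from 1.94 to 2.90. DUSP4 in MDA-MB-468 passed in 4 of 22 settings, at differences of 0.75 to 1.30 over all of them.

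**Figure D4:**
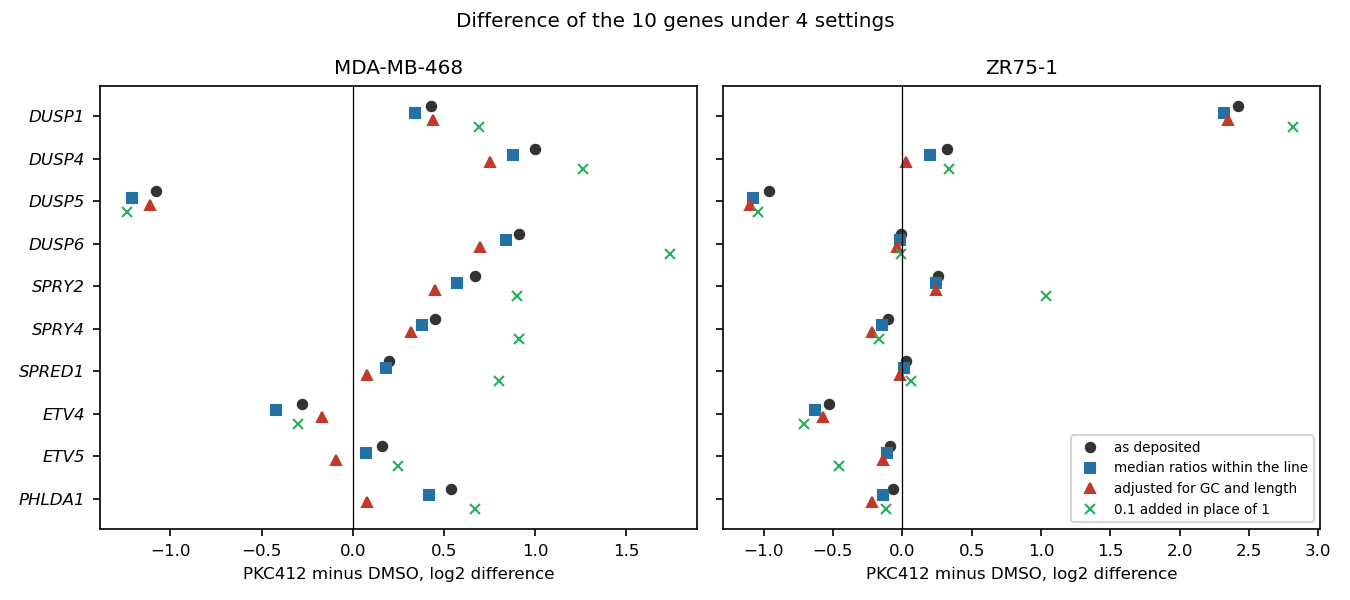
Log2 difference, PKC412 minus DMSO, of each of the 10 genes in both lines as deposited (circles), after scaling by median ratios within the line (squares), after adjustment for GC and length (triangles) and with 0.1 in place of 1 added before the log (crosses). DUSP5 lay below 0 and DUSP1 in ZR75-1 at 2.32 or above under all 4. In MDA-MB-468, DUSP6, SPRY4 and SPRED1 moved up with 0.1 added, and PHLDA1 and ETV5 moved towards or past 0 with the GC adjustment.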

How the data were processed

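RNA libraries (TruSeq) from MDA-MB-468 and ZR75-1 cells were sequenced on an Illumina HiSeq2000. The authors deposited FPKM values, computed with an in-house pipeline, for 23426 gene symbols in each of the 10 samples. The submitters' processing notes name CASAVA 1.82, TopHat2 and hg19, and the annotation and any filter are not given in the sources used here. FPKM sums ran from 599228 to 835069 per sample. Read counts could not be recovered, so the depth is unknown and precision comes only from the spread between samples.

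Groups came from the labels (2 DMSO and 3 PKC412 samples per line; the study's methods state triplicates). The members and gene lists were chosen with earlier results of these data known. The tests were made in R 4.3.3 with limma 3.58.1. The model held a mean per group for log2(FPKM + 1) and a trended eBayes, and covered the 16071 genes whose mean exceeded 0.1 FPKM in any of the 4 groups. P-values were adjusted after Benjamini-Hochberg, at 0.05. A fold is a ratio of mean FPKM, while a log2 difference on this scale understates the change of low genes. An exact permutation test of 2 against 3 samples cannot give a p below 0.1 and was not used. All 10 members were named. From the other lists, genes past the test in either line were named, and for a list with none up to 2 genes with the largest difference per line. Alternatives were smaller pseudocounts (0.1 and 0.01), other filters, median ratio scaling, each line fitted alone, no trend, a replicate block, leaving out each sample, and, chosen after seeing the data, adjustment for transcript GC content and length. GC content, length and positions were taken from GENCODE 29 by symbol (88.1% matched), and promoters from RefSeq on GRCh38.p14, where DUSP4, DUSP5, ETV4 and ETV5 had no entry. The limma script was tested on simulated data. Python 3.11.15, numpy 2.4.6, pandas 2.3.3 and matplotlib 3.10.9 were used.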

Additional observations from a re-analysis of the deposited data

How the results depend on the processing

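Of 836 values of members recomputed under the alternatives, 774 kept their direction and side of the threshold, 29 lost a call, 13 gained one and 20 uncalled values changed sign. In MDA-MB-468 202 genes and 1 member passed. This became 116 and 103 genes with pseudocounts of 0.1 and 0.01, 81 genes and 0 members with each line fitted alone, 2 members with median ratios over all samples or within each line, 579 genes and 3 members after adjustment for GC content and length, and 356 and 2 with a pseudocount of 0.1 as well. Leaving out single samples gave 65 (DMSO replicate 1 of that line) to 324 genes (PKC412 replicate 2) and 0 to 2 members. In ZR75-1 152 genes and 2 members passed. This became 12 genes and 0 members with each line alone, 452 genes after the GC and length adjustment (279 higher and 173 lower, against 120 and 32 without it) and 415 with a pseudocount of 0.1 as well, and 59 to 183 genes and 0 to 2 members without single samples. For the difference between the lines 43 genes and 0 members passed. This became 27 and 24 genes with pseudocounts of 0.1 and 0.01, 68 with no filter or without the trend, 210 genes and 1 member (DUSP4) after the GC and length adjustment, 132 and 1 with a pseudocount of 0.1 as well, and 16 to 64 genes without single samples. The cause of these changes was not tested.

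The labels use the same replicate numbers in both treatments, but nothing says that a number marks a shared culture or day, and the deviations of same-numbered samples correlated at -0.187 and -0.133 in MDA-MB-468 and -0.021 and -0.405 in ZR75-1. With the replicate number as a block, 0 genes and 0 members passed in either line, and 0 genes for the difference. DUSP5 was then at -1.14 (MDA-MB-468) or -0.93 (ZR75-1), and DUSP1 at 2.49 in ZR75-1. With the block and the GC and length adjustment together, 3 genes and 0 members passed in each line, and 0 genes for the difference. The block leaves few degrees of freedom. Depth is unknown, and values of DUSP6, SPRY2, SPRED1 and ETV5 in ZR75-1 lay near the filter of 0.1 FPKM, where the pseudocount sets the size of a difference.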
